A study of Mus musculus with 8 samples.

Results

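The S100 genes described here are S100a1, S100a4, S100a6, S100a10, S100a11, S100a13 and S100a16, 7 of the 47643 genes in the deposited expression table and 7 of its 17 protein-coding S100 genes. They were picked by gene name as the S100 genes of muscle fibers, fibroblasts and macrophages, leaving out S100a8 and S100a9 of neutrophils. The list was drawn up with this comparison of genotypes already known, so the differences of the 7 genes between genotypes are a description: no p-value is given for any of them, and counts past a threshold are printed only beside the share of all genes past it. Their mRNA was measured by RNA sequencing in quadriceps, the large extensor muscle of the thigh, in 8 C57BL/6 mice, of which 4 carried the label Nup210-/- and 4 the label Nup210+/+, with 1 library per mouse. The methods describe the mice as backcrossed to C57BL/6J. Nup210 encodes a nucleoporin, a membrane protein of the nuclear pore complex. The Nup210-/- line is constitutive and was made by Cre recombination, driven from the Hprt locus, of a loxP-flanked exon 2, so exon 2 is lost in every cell type of the muscle. Age and sex were not given for these mice, no protein was measured in these libraries, and the study turned to RNA sequencing to ask whether the activity of Mef2C, a muscle transcription factor, differs in muscle without Nup210.

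S100 proteins are small, mostly dimeric calcium sensors. Each carries a pair of EF-hands, helix-loop-helix folds that hold calcium, and binding opens a hydrophobic face that docks onto a target protein. They have no catalytic activity of their own and act through these partners, among them annexins, the calcium-dependent membrane-binding proteins, as well as cytoskeletal proteins and calcium channels and pumps. In muscle, S100a1 is the S100 protein of the fibers, whereas S100a4, S100a6, S100a10 and S100a11 are known from fibroblasts, macrophages and other cells between the fibers.

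The coding sequence of the second EF-hand loop shows what these genes share and where 1 of them departs. Each loop below has 36 bases, read 5′ to 3′ from the GENCODE M21 transcripts, with the codons of loop positions 1, 3, 5 and 12 in capitals, at which side chains with oxygen hold the calcium ion.
S100a1: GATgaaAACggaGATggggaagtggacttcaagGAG
S100a4: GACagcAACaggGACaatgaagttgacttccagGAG
S100a6: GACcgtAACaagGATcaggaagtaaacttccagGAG
S100a10: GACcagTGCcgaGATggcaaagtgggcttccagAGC
S100a11: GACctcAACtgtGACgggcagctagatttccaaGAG
S100a13: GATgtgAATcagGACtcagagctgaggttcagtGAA
S100a16: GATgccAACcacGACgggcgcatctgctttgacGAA
In 6 of the 7 genes all 4 of these codons encode aspartate, asparagine or glutamate. S100a10 kept such a codon at 2 of the 4 positions, with codons for cysteine and serine at the others, and its protein is known as the member of the family that does not respond to calcium. Over the aligned residues of the proteins, translated from the same transcripts, identity between members ran from 22.7% for S100a10 with S100a16 to 50.6% for S100a4 with S100a6.

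All 7 genes lie on chromosome 3 of GRCm38 (mm10), in 2 groups that are 2.90 Mb apart. S100a1 (ENSMUSG00000044080, 90511034 to 90514392, minus strand), S100a13 (90514435 to 90524581), S100a16 (90537254 to 90543151), S100a4 (90603771 to 90606045) and S100a6 (90612882 to 90624181) lie within 113.1 kb. S100a11 (93520488 to 93526287) and S100a10 (93555080 to 93564643) lie within 44.2 kb, and all but S100a1 are on the plus strand. S100a1 and S100a13 are transcribed away from each other, and no more than 42 bases separate their annotated ends. This stretch is shown because these neighbours differed in their values, and it runs from chr3:90514393-90514434 on the plus strand of GRCm38 (bases from RefSeq, GRCm38.p6).
S100a1 to S100a13: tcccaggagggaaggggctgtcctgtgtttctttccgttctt
Promoter windows from RefSeq, 250 bases before to 50 after a start, were at hand for 6 of the 7 genes, with 2 starts for S100a16 and none for S100a10. They were searched on both strands for 5 motifs: AP-1 (TGANTCA, in 7.81% of all 32851 windows), an E-box (CAGCTG, 16.3%), a GC box (GGGCGG, 35.7%), a TATA box (TATAAA, 13.6%) and an ETS core (GAGGAA, 28.3%). The window of S100a11 held the most matches, with 2 of AP-1, 3 of the GC box and 1 of the ETS core. They are in capitals in the stretch chr3:93520336-93520487 on the plus strand of GRCm38.p6, shown because it holds all 6.
S100a11: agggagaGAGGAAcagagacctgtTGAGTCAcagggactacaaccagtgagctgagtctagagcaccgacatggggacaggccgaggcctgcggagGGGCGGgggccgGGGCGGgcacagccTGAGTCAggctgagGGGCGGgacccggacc
S100a4 had a TATA box 31 bases before its start and an ETS core 19 bases after it. For S100a16, 1 window held an AP-1 motif, an E-box and a GC box, and the other an ETS core. The windows of S100a1, S100a13 and S100a6 held none of these letters, which says nothing of the factors themselves. Those of S100a1 and S100a13 share 204 bases, so they are not fully separate searches.

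Levels are given as TPM, a unit that corrects each gene for the length of its transcripts and brings every library to the same total, so levels of different genes can be set side by side. Between 18185 and 19357 genes were above 0 in a library, and the 10 most abundant took 28.1 to 32.0% of the total. Depth is unknown, so the error of a value is shown only by how far mice of one genotype differ. Nup210 mRNA itself was 10.3 ± 1.38 TPM in libraries labelled Nup210-/- and 7.93 ± 2.06 TPM in libraries labelled Nup210+/+ (SD, n = 4). Gene-level TPM of Nup210 did not separate the genotypes (log2 fold change 0.44, SE 0.147, limma adjusted p = 0.231). Such values take in reads from every exon, so they cannot show the loss of exon 2. For muscle of this line the study reports loss of the Nup210 protein by immunoprecipitation and immunofluorescence. No value here checks the genotype of a library, and every direction below rests on the labels. One library, Nup210+/+ replicate 2, stood apart: the sum of 6 genes of granulocyte precursors was 381.69 TPM there against at most 2.12 TPM in the other Nup210+/+ libraries and 1.57 TPM in the Nup210-/- libraries, and that of 4 Y-linked genes was 9.07 TPM against at most 0.70. Fold changes of the S100 genes are therefore also given without it.

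S100a6 was the most abundant of the 7 genes and S100a13 the least. The mean over all 8 libraries was 186.7 TPM for S100a6, 115.4 for S100a1, 76.8 for S100a11, 70.3 for S100a10, 36.04 for S100a16, 31.6 for S100a4 and 17.03 for S100a13. Neighbours in this order were compared within each library, by a two-sided exact sign-flip permutation test of the difference in log2 TPM with 256 flips, and p was adjusted over the 6 pairs. The order came from these same values, so the pairs were not set in advance, and the test pools both genotypes. Levels of S100a4 and S100a11 also depend on reads shared with other gene models, as given below. S100a6 was above S100a1 in 8 of 8 libraries, on average 1.59-fold, S100a10 above S100a16 in 8 of 8, 1.88-fold, and S100a4 above S100a13 in 8 of 8, 1.80-fold (adjusted p = 0.015625 for each, from the smallest p that the permutation test can give, 0.0078125). S100a1 was above S100a11 in 6 of 8 libraries, 1.60-fold (adjusted p = 0.046875, exact permutation test). Without Nup210+/+ replicate 1 or any single Nup210-/- library the adjusted p of this permutation test was 0.09375, and without Nup210+/+ replicate 4 it was 0.075. With a library left out the test has fewer flips, so these values do not by themselves show dependence on that library. S100a11 and S100a10 differed 1.07-fold (adjusted p = 0.453, exact permutation test), within the spread between libraries, but without Nup210+/+ replicate 4 the ratio was 1.12 and the adjusted p 0.046875. S100a16 and S100a4 differed 1.18-fold over all libraries (adjusted p = 0.122, exact permutation test). S100a16 was above S100a4 in 4 of 4 Nup210-/- libraries, 1.45-fold. In Nup210+/+ libraries the levels were nearly the same, with S100a4 above S100a16 in 2 of 4 and on average 1.03-fold.

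**Figure D1:**
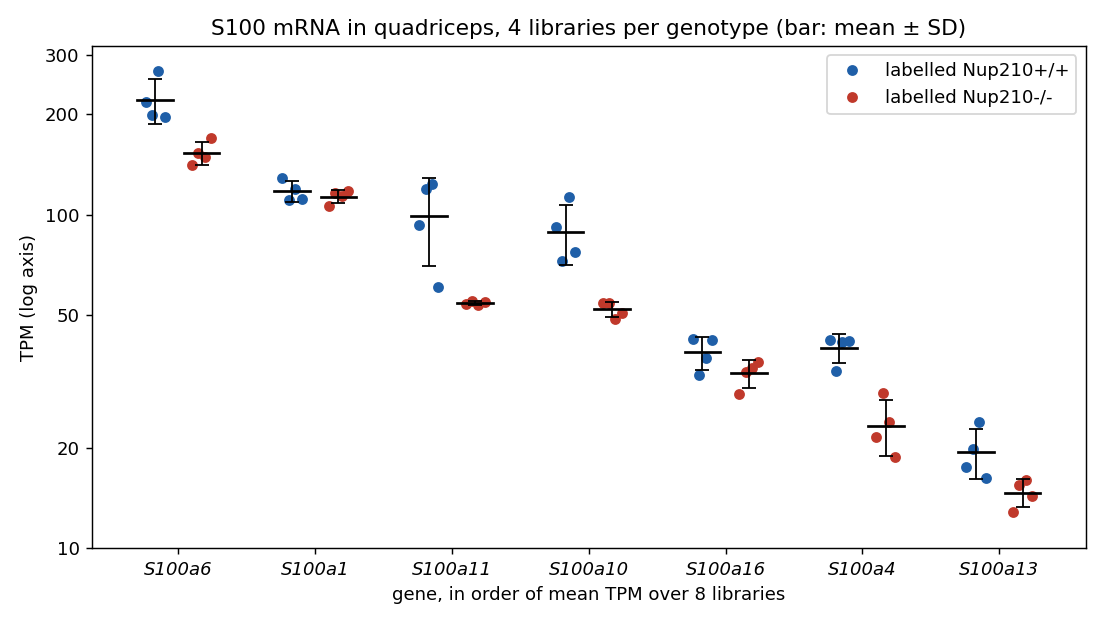
TPM of the 7 S100 genes on a log axis, in order of mean TPM, with 1 point per library, a bar at the mean of 4 libraries and whiskers of 1 SD, in blue for libraries labelled Nup210+/+ and in red for those labelled Nup210-/-. The points of the genotypes overlap for S100a1 and S100a16 and are separate for the other 5 genes, and the 4 Nup210-/- points of S100a11 lie between 53.64 and 55.16 TPM.

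Of the 7 genes, S100a4, S100a6, S100a10, S100a11 and S100a13 had lower TPM in each Nup210-/- library than in any Nup210+/+ library, while S100a1 and S100a16 overlapped. None of the 7 passed an adjusted p of 0.05 in limma over the 14229 genes tested, a threshold that 0.112% of all tested genes passed. Fold changes below are differences of log2(scaled TPM + 1), for which TPM were scaled between libraries by the median of ratios and a pseudocount of 1 was added. Means and ratios of TPM below are of TPM as deposited. Of the list, 5 of the 7 passed an unadjusted p of 0.05, all with lower values, against 14.2% of all tested genes in either direction and 7.18% with lower values. Separation of all 4 libraries from all 4 was seen with lower values in 5 of 7, against 4.6% of all tested genes. Because the list was made with this contrast in view, nothing is read from these counts. The median log2 fold change of the 7 genes was −0.42, beside −0.01 for all tested genes.

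S100a1, a partner of the ryanodine receptor and of the sarcoplasmic calcium pump in fibers, stood at 106.24, 115.77, 113.41 and 117.36 TPM in Nup210-/- replicates 1 to 4. In Nup210+/+ replicates 1 to 4 it was 128.69, 110.68, 119.61 and 111.05 TPM. The groups overlapped throughout and the means, 113.2 ± 4.91 and 117.5 ± 8.52 TPM (SD, n = 4), differed by less than the spread. The log2 fold change was 0.04 (SE 0.0689), or 0.01 without Nup210+/+ replicate 2, and it was −0.05 with TPM as deposited. Its place among all tested genes was near the middle, with 61.0% of them at a lower fold change.

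S100a6, or calcyclin, is abundant in fibroblasts and binds annexins and the calcyclin-binding protein. Its TPM were 140.71, 153.19, 148.92 and 169.42 in Nup210-/- replicates 1 to 4 and 217.52, 199.12, 269.6 and 195.37 in Nup210+/+ replicates 1 to 4. The highest Nup210-/- library stayed below the lowest Nup210+/+ library, and Nup210+/+ replicate 3 was the highest of all. The mean was 153.1 ± 12.1 TPM against 220.4 ± 34.2 TPM, a ratio of 0.694, with a log2 fold change of −0.42 (SE 0.0883) that was −0.46 without Nup210+/+ replicate 2.

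S100a4, known as fibroblast-specific protein and a regulator of non-muscle myosin, was 21.5, 29.21, 23.87 and 18.71 TPM in Nup210-/- replicates 1 to 4. Nup210+/+ replicates 1 to 4 had 42.18, 33.88, 41.58 and 41.64 TPM. Here the Nup210+/+ libraries were tight except for replicate 2, the lowest of them, which still lay above every Nup210-/- library. The mean was 23.3 ± 4.46 TPM against 39.8 ± 3.97 TPM, a ratio of 0.586. Its log2 fold change was −0.67 (SE 0.126), or −0.74 without Nup210+/+ replicate 2. Exons of S100a4 overlap those of the gene model Gm42674 on the same strand, which was listed at 0 in all libraries. Of the 75-base stretches in S100a4 transcripts, the length of a read, 44.8% also occur in Gm42674, so the split of reads between them is uncertain.

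S100a10, or p11, which binds annexin A2 and brings channels and plasminogen to the plasma membrane, was 54.17, 54.26, 48.76 and 50.79 TPM in Nup210-/- replicates 1 to 4. The corresponding Nup210+/+ values were 91.85, 72.4, 112.99 and 77.21 TPM. Here too the groups were separate, and the spread was unequal, with a coefficient of variation (SD as a percentage of the mean) of 5.18% in Nup210-/- and 20.6% in Nup210+/+ libraries. The mean was 52.0 ± 2.69 TPM against 88.6 ± 18.2 TPM, a ratio of 0.587. The log2 fold change was −0.64 (SE 0.108) with all libraries and −0.73 without Nup210+/+ replicate 2.

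S100a11, or calgizzarin, is the partner of annexin A1 and takes part in the repair of plasma membranes. It was 54.06, 55.16, 53.64 and 54.6 TPM in Nup210-/- replicates 1 to 4 but 92.91, 119.44, 123.86 and 60.47 TPM in Nup210+/+ replicates 1 to 4. The 4 Nup210-/- libraries were nearly the same, with a coefficient of variation of 1.21% against 29.4% in the Nup210+/+ libraries, of which replicate 4 lay close to the Nup210-/- values. The mean was 54.4 ± 0.660 TPM against 99.2 ± 29.2 TPM, a ratio of 0.548, the lowest of the 7 genes. The log2 fold change was −0.71 (SE 0.165), −0.60 without Nup210+/+ replicate 2 and −0.89 without Nup210+/+ replicate 4. In all, 1.95% of tested genes had a lower fold change than S100a11.

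The S100a11 transcript has a near-copy, the processed pseudogene Gm12854 (chromosome 4, 116067268 to 116067564), which differs from it at 3 of 297 bases, and 37.8% of the 75-base stretches of S100a11 are found in it as well. Of these 165 shared stretches, 83 also occur in another gene model, Gm7665, whose values are not given here. Gm12854 was listed at 12.3, 13.93, 16.65 and 3.83 TPM in Nup210-/- replicates 1 to 4 and at 7.1, 16.85, 13.33 and 8.34 TPM in Nup210+/+ replicates 1 to 4, with overlapping groups and a log2 fold change of 0.04 (SE 0.390, limma adjusted p = 0.975). How reads were split between S100a11 and this copy cannot be seen in the deposited values. With both added together, TPM were 66.36, 69.09, 70.29 and 58.43 in Nup210-/- and 100.01, 136.29, 137.19 and 68.81 in Nup210+/+ replicates 1 to 4. In these TPM, not scaled between libraries, the groups overlapped, since Nup210+/+ replicate 4 fell among the Nup210-/- libraries. Scaling factors were 0.954 for that library but 0.987 and 1.004 for Nup210-/- replicates 2 and 3, which lay just above it. Division by these factors raises Nup210+/+ replicate 4 relative to both, so the overlap need not hold for scaled TPM. Sums of scaled TPM were not compared, and the overlap is stated only for TPM as deposited.

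S100a13, which helps export FGF1 and interleukin 1 alpha from cells, was 12.82, 15.51, 16.04 and 14.34 TPM in Nup210-/- and 17.54, 19.9, 23.82 and 16.28 TPM in Nup210+/+ replicates 1 to 4. The groups did not overlap but came close to each other at Nup210-/- replicate 3 and Nup210+/+ replicate 4. The means were 14.7 ± 1.43 and 19.4 ± 3.32 TPM, with a log2 fold change of −0.28 (SE 0.0886), or −0.26 without Nup210+/+ replicate 2. Its neighbour S100a1 on the other side of the 42 bases had a log2 fold change of 0.04, as given above. S100a16, a broadly expressed member, was 28.99, 33.79, 34.76 and 36.19 TPM in Nup210-/- and 42.34, 33.06, 37.24 and 41.95 TPM in Nup210+/+ replicates 1 to 4. These overlapped through Nup210+/+ replicate 2, and the log2 fold change was −0.11 (SE 0.115), or −0.18 without that library.

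Summed over the 7 genes, S100 mRNA was 418.49, 456.89, 439.4 and 461.41 TPM in Nup210-/- replicates 1 to 4 and 633.03, 588.48, 728.7 and 543.97 TPM in Nup210+/+ replicates 1 to 4. The sums of the genotypes were separate, at 444.0 ± 19.5 and 623.5 ± 79.0 TPM. With TPM as deposited, 69.6% of all tested genes had a lower estimate in Nup210-/- libraries, with a median log2 fold change of −0.08. These sums were not scaled between libraries and carry that shift. S100a6 held a like share of the sum in both, 34.4 ± 1.53% in Nup210-/- and 35.3 ± 1.45% in Nup210+/+ libraries. The share of S100a1 was 25.5 ± 0.215% in Nup210-/- and 19.0 ± 1.87% in Nup210+/+ libraries (SD, n = 4), a difference in share that went with the lower sum of the others and not with a higher level of S100a1 in TPM. S100a1 exceeded S100a11 on average in both genotypes, 2.08-fold in Nup210-/- libraries, in 4 of 4, and 1.23-fold in Nup210+/+ libraries, in 2 of 4.

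**Figure D2:**
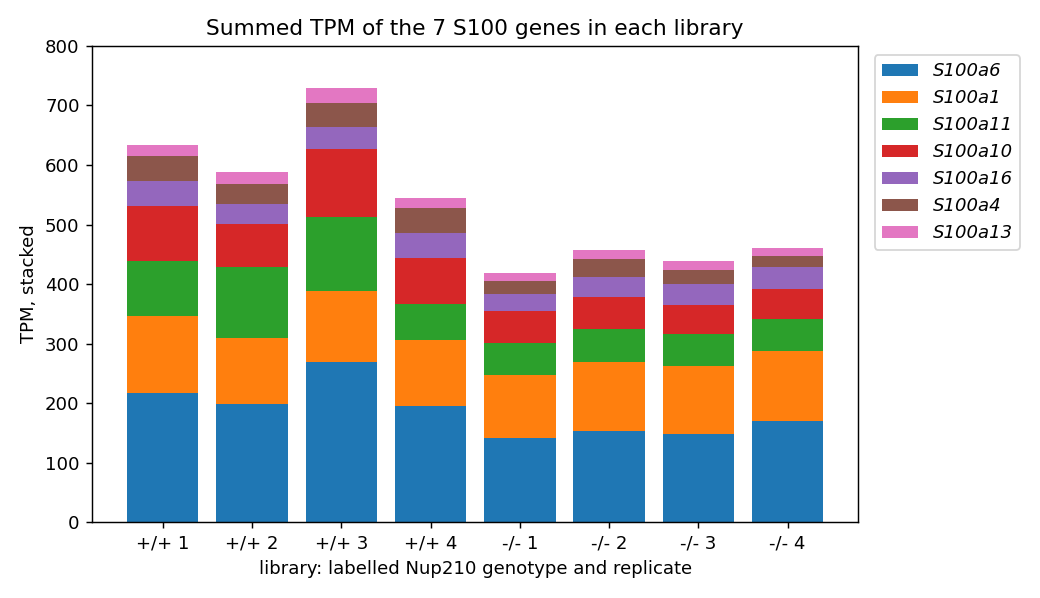
Stacked bars of TPM for the 7 S100 genes, 1 bar per library, named by its labelled Nup210 genotype and replicate, with each color a gene. Every Nup210-/- bar ends between 418.49 and 461.41 TPM and every Nup210+/+ bar between 543.97 and 728.7 TPM, while the S100a1 segment is of similar height in all 8.

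The annexins are the membrane-binding partners of several of these proteins. Of 12 annexin genes in the table, 9 were tested. None passed an adjusted p of 0.05 in limma, where the background was 0.112%. At an unadjusted p of 0.05, 5 were lower and 1 higher in libraries labelled Nup210-/-, where 14.2% of all tested genes passed in either direction and 7.18% with lower values. The annexins too were listed with earlier results of these data known, so these counts are a description. The median log2 fold change was −0.32, and 6 of the 9 estimates were negative. Anxa2, the partner of S100a10, came nearest, with 43.55, 46.09, 47.58 and 43.88 TPM in Nup210-/- replicates 1 to 4 and 78.15, 69.4, 95.21 and 60.03 TPM in Nup210+/+ replicates 1 to 4. Its groups did not overlap, and the log2 fold change was −0.62 (SE 0.0892, limma adjusted p = 0.0528). Without Nup210+/+ replicate 4 Anxa2 passed the threshold. The ratio of S100a10 to Anxa2 in TPM was 1.15 ± 0.0918 in Nup210-/- and 1.17 ± 0.0997 in Nup210+/+ libraries (SD, n = 4), so the levels of the partners differed by a like factor.

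Anxa1, the partner of S100a11, was 32.2 ± 4.29 TPM in Nup210-/- and 55.6 ± 21.9 TPM in Nup210+/+ libraries (log2 fold change −0.61, SE 0.204, limma adjusted p = 0.233). The ratio of S100a11 to Anxa1 was 1.71 ± 0.245 and 1.85 ± 0.442. Anxa5, a binder of phosphatidylserine, had a log2 fold change of −0.32 (limma adjusted p = 0.226), Anxa3 one of −0.68 (0.210), Anxa4 one of −0.27 (0.273) and Anxa8 one of −0.38 (0.514). Values on the other side of 0 were those of Anxa6 (0.12, limma adjusted p = 0.374), Anxa7 (0.14, 0.451) and Anxa11. Anxa11, which binds S100a6, had means of 74.5 ± 2.91 and 67.1 ± 3.43 TPM, a log2 fold change of 0.24 (SE 0.0464, limma adjusted p = 0.0945).

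**Figure D3:**
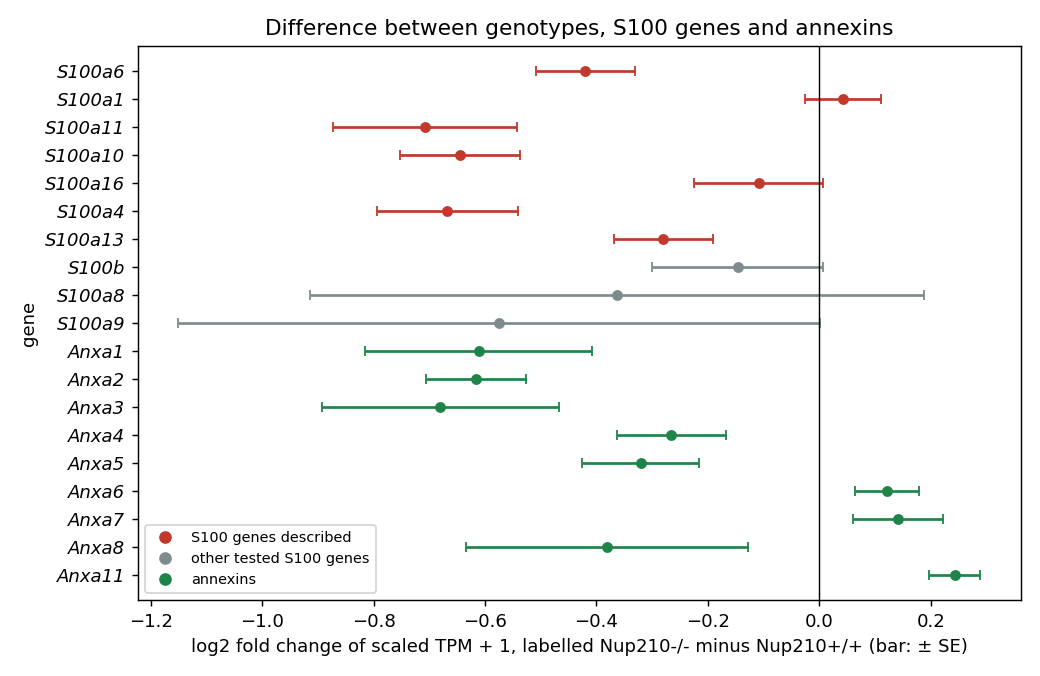
Log2 fold change of scaled TPM + 1, libraries labelled Nup210-/- minus those labelled Nup210+/+, with bars of 1 SE, for the 7 S100 genes (red), the other tested S100 genes (gray) and the annexins (green). S100a4, S100a10, S100a11, Anxa1, Anxa2 and Anxa3 lie between −0.71 and −0.61, whereas S100a1 is at 0.04 and Anxa11 at 0.24.

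Other targets and receptors of S100 proteins were read from a list of 23 genes, of which 20 were tested. None passed an adjusted p of 0.05 in limma. At an unadjusted p of 0.05, 6 had higher and 1 lower values in libraries labelled Nup210-/-, against 14.2% of all tested genes in either direction, and the median log2 fold change was 0.07. Nothing is read from these counts, as this list was also chosen with earlier results known. Among the fiber targets of S100a1, Ryr1, the calcium release channel, was 299.6 TPM against 264.2 TPM (log2 fold change 0.28, limma adjusted p = 0.207), and Atp2a1, the calcium pump of fast fibers, was 10012 TPM against 9002 TPM (0.25, 0.253). Atp2a2, the calcium pump of slow fibers, had an estimate of the other sign, at 125.4 TPM against 147.6 TPM (−0.17, limma adjusted p = 0.805). Cacybp, which binds S100a6, differed by −0.07 (limma adjusted p = 0.674), Ahnak, which binds S100a10 with annexin A2, by −0.07 (0.827), and Myh9, the non-muscle myosin bound by S100a4, by 0.03 (0.867). Fgf1, which leaves cells with S100a13, was 14.8 against 11.4 TPM (0.46, limma adjusted p = 0.279). Of the 20 tested genes, 8 had negative estimates. The 1 gene with lower values past an unadjusted p of 0.05 was Tlr4, a receptor for S100a8 and S100a9 (−0.49, limma adjusted p = 0.179). Ager, the receptor for advanced glycation end products that binds many S100 proteins outside cells, had a mean of 0.0875 TPM in Nup210-/- and 0.115 TPM in Nup210+/+ libraries and was too low to test.

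The other S100 genes were at far lower levels. S100a8, the neutrophil partner of S100a9, was 0.43, 1.18, 1.03 and 0.56 TPM in Nup210-/- and 0.55, 8.03, 0.25 and 0.69 TPM in Nup210+/+ replicates 1 to 4, so 1 library, Nup210+/+ replicate 2, set its mean. The log2 fold change was −0.36 (SE 0.551, limma adjusted p = 0.795) with that library and 0.28 without it. S100a9 had the same pattern, with 7.98 TPM in Nup210+/+ replicate 2 and at most 1.17 TPM elsewhere. Its log2 fold change was −0.58 (limma adjusted p = 0.675), and 0.07 without that library. S100b, a marker of Schwann cells, was 1.62 ± 0.348 and 2.06 ± 0.634 TPM (log2 fold change −0.15, limma adjusted p = 0.690), and its fold change was −0.24 without that library. S100a5, S100a7a, S100a14 and S100g stayed at or below 1.18 TPM in every library and were not tested, and S100a2, S100a3 and S100z were listed at 0. None of the 3 tested genes passed at an adjusted or an unadjusted p of 0.05.

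In bulk muscle, fewer cells of a type and less RNA per cell cannot be told apart, so marker genes of the cells of the muscle were read beside the S100 genes. The tissue label fitted the data, as 10 markers of muscle fibers, most of them fast isoforms, summed to between 102048 and 117386 TPM in every library. Their estimates were all positive in libraries labelled Nup210-/-, with a median log2 fold change of 0.18. For the lists that follow, the shares over all tested genes were 51.3% with a negative estimate and 7.18% past an unadjusted p of 0.05 with lower values. The marker lists were chosen with earlier results of these data known, so their counts are a description. Of 12 fibroblast markers, 12 of 12 had negative estimates, 7 of them past an unadjusted p of 0.05, and their sum was 1446 to 1643 TPM in Nup210-/- and 1567 to 2862 TPM in Nup210+/+ libraries. The 12 macrophage markers also had 12 negative estimates, 7 of them past an unadjusted p of 0.05, with sums of 201.6 to 228.2 TPM in Nup210-/- and 238.0 to 506.0 TPM in Nup210+/+ libraries. Among 8 tendon markers 7 had negative estimates, 5 of them past an unadjusted p of 0.05, with sums of 98.0 to 149.3 TPM in Nup210-/- and 134.0 to 222.6 TPM in Nup210+/+ libraries. In limma no marker on these lists had an adjusted p under 0.05, and none was listed at 0 in all libraries.

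The medians of these lists, −0.41 for fibroblasts, −0.42 for macrophages and −0.53 for tendon, lay near the −0.42 of the S100 genes, and their part in the S100 values was not tested. Endothelial (median −0.00, 8 tested), mural (−0.04, 6 tested), Schwann cell (−0.03, 6 tested) and satellite cell markers (0.10, 4 tested) lay near 0, slow fiber markers at −0.15 with 6 of 8 negative, and adipocyte markers at −0.19 with 6 of 6 negative. The lists did not run alike from library to library. Macrophage markers in Nup210+/+ replicate 4 were below their 8-library mean, by −0.16 on the log2 scale on average, a library in which S100a11 was also the lowest of its group while S100a4 was at 41.64 TPM. Adipocyte, macrophage and fibroblast markers were highest in Nup210+/+ replicate 3, by 0.91, 0.65 and 0.53, the library with the most S100a6, S100a10, S100a11 and S100a13.

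**Figure D4:**
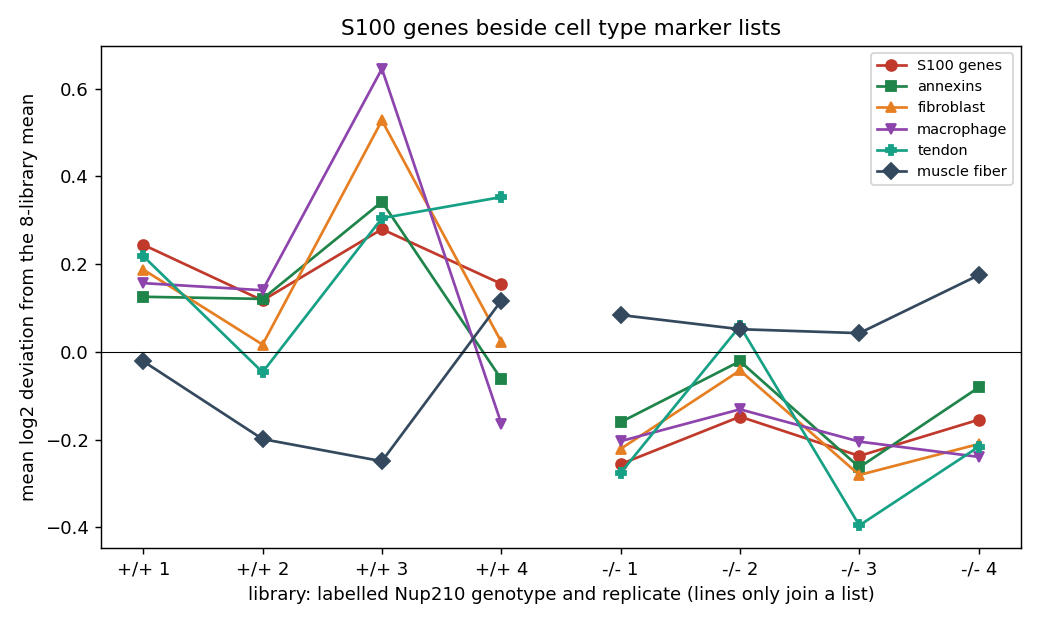
Mean deviation from the 8-library mean on the log2 scale, per library, for the tested genes of each list: the 7 S100 genes, the annexins, and the markers of fibroblasts, macrophages, tendon and muscle fibers, with lines that only join the points of a list. The S100 genes are above 0 in all 4 Nup210+/+ libraries and below 0 in all 4 Nup210-/- libraries, and the macrophage and fibroblast lists peak in Nup210+/+ replicate 3, at 0.65 and 0.53.

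For each S100 gene, the 3 genes with the most similar profile over the 8 libraries were listed by Pearson's r, out of 12655 genes with a mean of at least 1 TPM. As the highest of so many, these r are a description without a test, and they carry the difference between genotypes with them. S100a11 was followed most closely by Snora17 (0.986), Ccr2, a chemokine receptor of monocytes (0.983), and Cmtm6 (0.982). S100a10 ran with Marcks, a substrate of protein kinase C at the membrane (0.981), Emp1, an epithelial membrane protein (0.975), and the pseudogene RP24-215A14.6 (0.973). For S100a4 the genes were Irgq (0.982), Hspa1b, an inducible heat shock protein (0.980), and the noncoding Dubr (0.975), and for S100a6 Creb5 (0.961), Prpf3 (0.960) and Chd6 (0.959).

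S100a13 was nearest to Cox6a1, a subunit of cytochrome oxidase (0.961), Pros1, or protein S (0.958), and Avl9 (0.954). S100a16 was nearest to Spg7, a mitochondrial protease (0.972), Crip2 (0.971) and Mrpl12, a mitochondrial ribosomal protein (0.967). S100a1, with the least spread between libraries, had the lowest values, with Itpkc, an inositol trisphosphate kinase (0.934), Churc1 (0.931) and Serhl (0.905). No gene was on the list of more than 1 S100 gene. Of the 21 genes, 13 were also listed when TPM were used as deposited, and 4 when each genotype was centered on its own mean.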

How the data were processed

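RNA sequencing of quadriceps from 8 mice was used, 4 labelled Nup210-/- and 4 labelled Nup210+/+, 1 library each. The authors isolated polyadenylated RNA and read strand-specific libraries from a single end over 75 bases. Reads were processed with cutadapt 2.3, STAR 2.7.0d and RSEM 1.3.1 on mm10, per the submitters' processing notes, and the authors deposited TPM per gene and library, relative to transcript length and library total. Reads per gene were not used here, so depth is unknown and the count test of the study was not run.

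TPM were scaled by the median of ratios over the 15225 genes above 0 in all libraries. The 14229 genes with a mean of at least 0.5 TPM were fitted as log2(scaled TPM + 1) with limma 3.58.1 in R 4.3.3 (eBayes with trend) on genotype, with no other term. All p-values of this fit were adjusted together by the Benjamini-Hochberg method, with a threshold of 0.05. The pseudocount understates fold changes of low genes. Levels of neighbouring S100 genes were compared with an exact permutation test. The members and lists were chosen with earlier results of these data known. The genes named are the 7 members, every other S100 gene, annexins and listed targets and receptors, the 3 genes most like each member, and list genes where a result turned on them. Gm12854 and Gm42674 were named after their values were seen, for shared sequence with members. Gm7665 was named for shared sequence alone. Coordinates and transcripts are from GENCODE M21 (GRCm38), matched by Ensembl identifier, and promoters from RefSeq (GRCm38.p6). Protein identity came from biopython 1.88 and figures from matplotlib 3.10.9 in Python 3.11.15. Alternatives were pseudocounts of 0.1 and 0.5, TPM as deposited, upper-quartile scaling, filters at any TPM above 0 and at a mean TPM of 1, eBayes without trend, library weights, the replicate number as a block, and each library left out in turn.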

Additional observations from a re-analysis of the deposited data

Results flagged for a closer look

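S100a4 in the libraries labelled Nup210+/+ had 1 library away from the others: replicate 2, at 33.88 TPM, lay below values of 41.58, 41.64 and 42.18 TPM, and its gap to the nearest of them was 0.928 of the whole range of the group, past Dixon's critical value for 4 samples. It is the library with the granulocyte precursor genes. Of 14 groups examined, the 7 genes in each genotype, this was the only one past that value, where 0.7 would be expected by chance of 1 in 20.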

How the results depend on the processing

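In limma, 16 of all tested genes had an adjusted p under 0.05. That count was 0 with upper-quartile scaling (2071 at an unadjusted p of 0.05), with the replicate block (1850) and with eBayes without trend (1952), 84 with library weights, 1 with any TPM above 0, 27 with a mean TPM of at least 1, and 0 to 10 with single libraries left out. The 16 were 7 higher and 9 lower, and with TPM as deposited 2 higher and 12 lower, when the median of all genes moved from −0.01 to −0.08. Of the S100 genes, 0 passed outside 2 settings. With library weights 2 passed, S100a4 and S100a10, beside 84 of all 14229 tested genes. Without Nup210+/+ replicate 4 it was 1, S100a11, beside 10 of 14243 tested genes. Nothing is read from these counts, as the list was made with the contrast known. Of the annexins and other listed partners, 0 passed except Anxa2, 1 gene, with a pseudocount of 0.1, library weights, a mean TPM of at least 1, or without Nup210+/+ replicate 4 (range 0 to 1). The median log2 fold change of the 7 genes was −0.51 to −0.36 over 14 alternatives, and S100a1 alone changed sign, to −0.05 with TPM as deposited and −0.02 with library weights. Of 6 neighbouring pairs of levels, 3 to 4 differed with single libraries left out, not always the same pairs. Same-numbered replicates did not deviate together (correlations −0.033 to 0.086), which shows no pairing by number but cannot exclude one. At 4 mice per genotype and unknown depth, small differences of these genes cannot be resolved, and protein was not measured. Reads shared with other gene models, Gm42674 for S100a4 and Gm12854 and Gm7665 for S100a11, also limit those values.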
